A study of Mus musculus with 26 samples.

Results

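The antigen receptor gene segments are the V, D and J units that lymphocytes join to make immunoglobulin and T cell receptor genes. They were placed against the domain boundaries of mouse embryonic stem cells (ESCs), which do not assemble these genes. Members were all RefSeq entries of GRCm38 on the main chromosomes whose symbol begins with Ighv, Ighd, Ighj, Igkv, Igkj, Iglv, Iglj, Trav, Traj, Trbv, Trbj, Trgv, Trdv or Tradv. The rule took 635 of 49209 annotated genes. They were 526 V segments, 20 D segments, 88 J segments and the delta constant gene Ighd, whose symbol matches the same letters as the heavy chain D segments. The annotation marks 175 of the entries as pseudogenes. All 635 lay within 6 loci, with 208 in the heavy chain locus Igh, 167 in the kappa light chain locus Igk, 8 in the lambda light chain locus Igl, 196 in the joint T cell receptor alpha and delta locus Tra/Trd, 49 in the beta locus Trb and 7 in the gamma locus Trg. The rule does not reach the Trbd, Trdd, Trdj and Trgj entries, and 10 such segments are given beside the members where a result turns on them.

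The boundaries came from Micro-C, a chromosome conformation assay that cuts chromatin with micrococcal nuclease, in cells of G1 phase. The only group used here was ESCs given 0.05% v/v DMSO as vehicle, whose 6 libraries share 1 deposited list, named in the labels beside their pooled contact maps. The cells were 1 line, the Bruce-4 derived RAD21-dTAG line of C57BL/6J genotype, in which the cohesin subunit RAD21 is tagged for induced breakdown, as in every group of the study, and they were grown in serum/2i/LIF medium. The other 20 of the 26 libraries (ESCs given 500 nM dTAG, which triggers loss of tagged RAD21, or 20 µM A485, an acetyltransferase inhibitor, and epiblast-like cells given DMSO or dTAG) were not analysed here. The list held 3515 intervals, each 25 kb wide and on a 25 kb grid, so a boundary is located no more finely than that. It has no score and no replicates, contact depth is unknown, and no test between conditions was possible.

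In lymphocytes the RAG1 and RAG2 proteins cut beside a V, a D or a J segment, and end joining factors fuse the pieces, so that an exon for the variable part of a receptor is made. Many V segments lie far from the D and J segments. Cohesin sliding along chromatin, and CTCF sites that halt it, are known to bring distant V segments to the D and J end in developing B and T cells. Enhancers near the constant genes mark that end, where RAG proteins gather.

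The RefSeq start windows (GRCm38.p6, from 250 bases before to 50 bases after a gene start) held 0 of the 635 members, so no segment sequence is printed. Shown instead are the starts of 3 protein-coding genes that lay inside boundary intervals at these loci, and of Rag1, which encodes the catalytic subunit of the recombinase. These starts were chosen after seeing the data. Other protein-coding genes, among them Hira, Lamp3 and Nme8, also overlapped boundaries beside the loci and are not shown. Zfp386, a zinc finger protein gene (chr12:116047474-116047773, plus strand), stood at the end of Igh beyond the last V segment. Rpia, which encodes ribose 5-phosphate isomerase (chr6:70792126-70792425, minus strand), stood at the J and constant end of Igk. 2210010C04Rik, a protein-coding gene (chr6:41035460-41035759, minus strand), lay in the Trb boundary that also holds Trbv2 and Trbv3. The window of Rag1 (chr2:101649483-101649782, minus strand) lay 0.219 kb outside the nearest boundary. Capitals mark matches, on either strand, to the GC box letters GGGCGG or to AGGNGGC, a part of the CTCF consensus.
Zfp386: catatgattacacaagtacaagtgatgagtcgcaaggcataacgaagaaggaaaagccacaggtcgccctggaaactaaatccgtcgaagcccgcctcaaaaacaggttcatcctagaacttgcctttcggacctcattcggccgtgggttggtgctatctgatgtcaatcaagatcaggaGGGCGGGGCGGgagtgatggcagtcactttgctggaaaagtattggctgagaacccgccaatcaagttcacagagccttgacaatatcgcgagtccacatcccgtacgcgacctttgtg
Rpia: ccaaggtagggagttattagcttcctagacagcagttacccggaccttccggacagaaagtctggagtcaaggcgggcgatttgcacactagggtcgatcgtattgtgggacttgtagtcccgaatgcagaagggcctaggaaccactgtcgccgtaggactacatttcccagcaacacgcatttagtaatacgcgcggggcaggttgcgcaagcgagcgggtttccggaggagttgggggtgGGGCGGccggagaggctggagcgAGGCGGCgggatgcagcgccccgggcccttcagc
2210010C04Rik: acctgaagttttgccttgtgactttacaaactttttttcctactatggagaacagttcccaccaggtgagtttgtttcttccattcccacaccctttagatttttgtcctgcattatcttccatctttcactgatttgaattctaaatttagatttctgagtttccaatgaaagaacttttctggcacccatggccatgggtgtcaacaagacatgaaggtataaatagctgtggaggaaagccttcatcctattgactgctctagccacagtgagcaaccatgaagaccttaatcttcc
Rag1: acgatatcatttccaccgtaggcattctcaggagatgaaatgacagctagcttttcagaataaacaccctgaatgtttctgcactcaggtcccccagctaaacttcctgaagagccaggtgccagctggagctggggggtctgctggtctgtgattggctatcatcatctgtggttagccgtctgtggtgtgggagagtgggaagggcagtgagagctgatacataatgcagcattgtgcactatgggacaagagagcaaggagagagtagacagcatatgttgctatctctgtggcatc

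The starts of Zfp386 and Rpia held 17 and 24 CG pairs in 300 bases, above the median of 7 over 32619 start windows, of which 29.9% and 18.6% held more. The GC content was 51.0% for Zfp386 and 60.7% for Rpia, beside a median of 53.0%. The starts of 2210010C04Rik and Rag1 held 0 and 3 CG pairs, with a GC content of 40.3% and 50.0%. Zfp386 held 2 overlapping matches to GGGCGG. Rpia held 1 match to GGGCGG and 1 to AGGNGGC. The other pair held neither. Among all windows 35.9% held GGGCGG and 29.4% held AGGNGGC, and these motifs can overlap. The octamer ATTTGCAT, known from immunoglobulin promoters and bound by Oct factors, was in none of these 4 windows and in 1.75% of all. A match is a description of letters and not a binding site.

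Few receptor segments lay near a boundary. A gene was counted as near a boundary when either of its ends lay inside an interval or within 10 kb of it. By that rule 15 of 635 entries were near, or 2.36% (95% Wilson interval 1.44 to 3.86), whereas 13.0% of all annotated genes, 18.3% of protein-coding genes and 8.03% of the 12135 annotated genes of at most 1 kb were near. The last set is the closest in size, with a median length of 0.456 kb beside 0.438 kb for the receptor entries. Receptor entries of that length are themselves part of it, and all of them are part of the set of all annotated genes. Of the 15, 11 belonged to Trb, and without that locus the share was 0.683%. Neighbouring segments share boundaries, so the interval covers counting error only and is too narrow, and no test was made. The median distance to the nearest boundary was 333 kb, beside 129 kb over all genes and 179 kb over genes of at most 1 kb. Of the entries, 226 (35.6%) lay over 500 kb from any boundary, beside 11.0% of all genes and 16.9% of genes of at most 1 kb. With a window of 50 kb, 49 entries (7.72%) were near, beside 28.1% of all genes, 35.6% of protein-coding genes and 20.0% of genes of at most 1 kb.

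By class, 8 of 526 V segments (1.52%), 7 of 88 J segments (7.95%) and 0 of 20 D segments were near a boundary. The J share was close to the 8.03% of genes of at most 1 kb. The Wilson interval of the D segments ended at 16.1% and so holds that share as well. All 7 near J segments belonged to the Trbj2 cluster. Inside a boundary lay 5 segments (0.787%, beside 8.00% of all genes, 11.7% of protein-coding genes and 4.31% of genes of at most 1 kb with an end inside), and all 5 were V segments not marked as pseudogenes (Ighv7-2, Igkv5-45, Trbv2, Trbv3 and Trbv31). Among entries marked as pseudogenes, 2 of 175 were near (1.14%), the V segment Ighv7-1 and the J segment Trbj2-6. Just inside the 10 kb limit was Trbv4 at 9.44 kb. Just outside it were Igkv12-46 at 10.0 kb and Trgv2 at 11.6 kb.

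**Figure D1:**
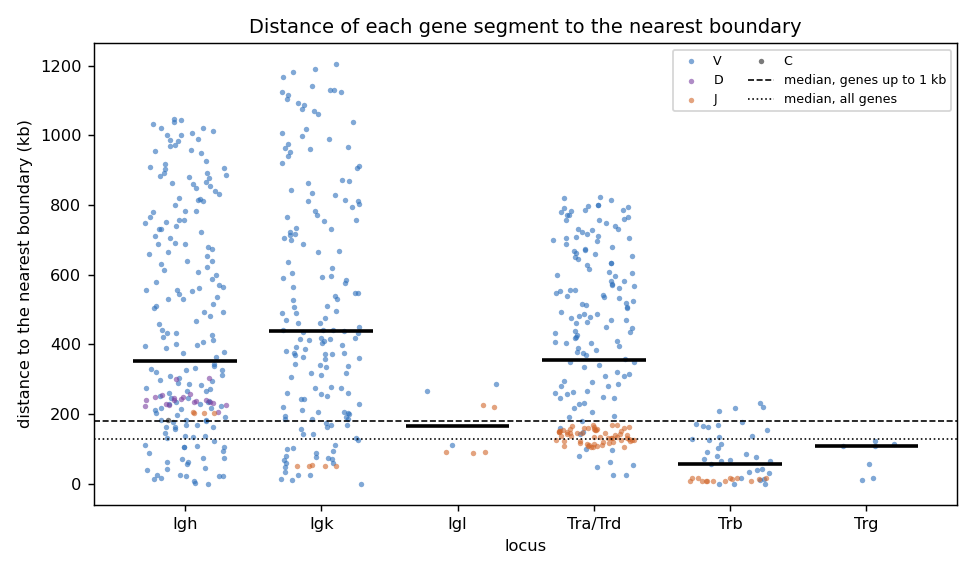
Distance from each of the 635 entries to the nearest boundary interval, in kb, by locus, with V, D, J and constant entries coloured and the locus median as a black bar. The medians of Igh, Igk and Tra/Trd (353, 439 and 354 kb) lie above both lines for other genes, which mark 179 kb for genes of at most 1 kb and 129 kb for all genes, and the Trb median of 56.8 kb lies below both.

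The 6 loci spanned 8.59 Mb from first to last segment, and 6 boundaries overlapped them, or 0.699 per Mb. The whole list had 1.37 per Mb of chromosome, measured from the first to the last gene or boundary. Igh and Igk each held 1 boundary over 2602 and 3168 kb, Tra/Trd 1 over 1791 kb, Trb 2 over 667 kb, Trg 1 over 162 kb and Igl 0 over 198 kb. The rates per Mb were 0.384 for Igh, 0.316 for Igk and 0.558 for Tra/Trd, below the 1.19, 1.45 and 1.15 of chromosomes 12, 6 and 14. They were 3.00 for Trb and 6.16 for Trg, above the 1.45 and 1.43 of chromosomes 6 and 13, and rest on 2 boundaries and 1. Those of Igh, Igk and Tra/Trd rest on 1 boundary each. The second Trb boundary only overlaps the end of the locus, and its centre lies outside. Counting only intervals centred inside a locus gave 5 boundaries in place of 6, with 1 in Trb, so the high Trb rate depends on this choice. Segments fell into 11 domains, a domain being the stretch between neighbouring boundaries. Of these, 3 held over 100 entries each, and together they held 397 of 635 (62.5%). The 3 large domains were long, though holding so many spaced entries itself takes length. The Igk domain measured 2425 kb, the Igh domain 2100 kb and the Tra/Trd domain 1650 kb, and 102, 154 and 242 of the 3495 domains of the list were longer (2.92%, 4.41% and 6.92%). The other domains that held segments measured 350 to 975 kb, and from 67.2% down to 18.9% of the domains of the list were longer. The median entry lay in a domain of 1650 kb, against 725 kb for all genes and 875 kb for genes of at most 1 kb.

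**Figure D2:**
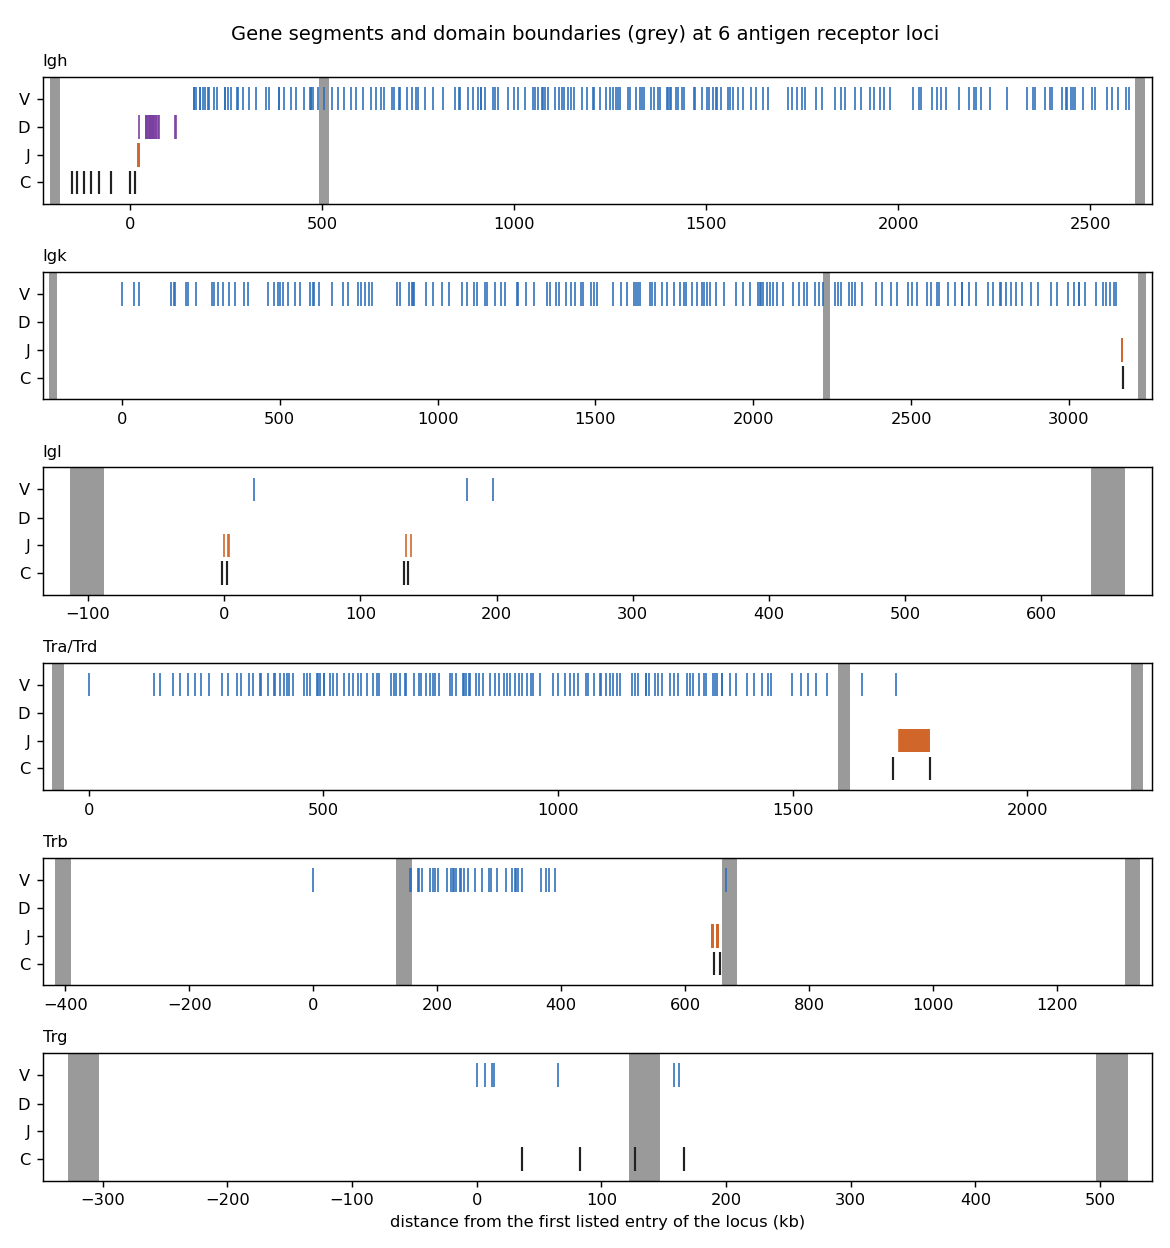
Maps of the 6 loci, to scale within each panel, with V, D and J segments and constant genes (C) as ticks and the 25 kb boundary intervals in and beside the locus in grey, against distance in kb from the first listed entry. A boundary stands within the V segments of Igh and Igk, between Trdv3 and Trdv4 in Tra/Trd with all but 2 V segments on its far side from J, at both ends of the main Trb array and between V segments of Trg, and Igl has none inside.

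The heavy chain locus Igh, on chromosome 12 from 113407535 to 116009954, was divided within its V segments. The boundary from 113900001 to 113925000 held Ighv7-2. Ighv7-1 lay 3.06 kb before it and Ighv14-1 lay 6.95 kb after it. The 675 kb domain on the constant side held Ighd, all 4 Ighj segments, all 20 D segments and 33 V segments. It also held the protein-coding genes Adam6b, which lies among the D segments, and Adam6a, which lies between the last D segment and the V segments. The 2100 kb domain beyond the boundary held 149 V segments and no protein-coding gene. Its farthest member, Ighv1-46, was 1047 kb from any boundary, and the last V segment of the locus, Ighv1-86, ended 15.0 kb before the outer boundary that holds the start of Zfp386. On the constant side the closing boundary, from 113200001 to 113225000, lay 31.2 kb from Igha, the constant gene of IgA, and 194 kb from Ighm, the constant gene of IgM. D segments lay 206 to 302 kb from a boundary and J segments 204 to 205 kb.

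Most V families of Igh lay on 1 side of this boundary. A family is given by the first number of the symbol. All 11 Ighv2 segments and 20 of 21 Ighv5 segments lay on the J side. All 92 Ighv1 segments, the largest family, lay beyond the boundary, with all 16 of Ighv8 and all 8 of Ighv3. Of the 15 families with over 1 segment in the domains, 12 lay in 1 domain and 3 were in both. In Ighv5 the exception was Ighv5-21, in Ighv6 it was Ighv6-1 on the J side with 6 others beyond, and Ighv7 had Ighv7-1 on the J side, Ighv7-2 in the boundary, and Ighv7-3 and Ighv7-4 beyond. Families are laid out in blocks along the chromosome, so any cut would part them to some degree, and no test was made. Pseudogenes were 42.4% of the V segments on the J side and 32.9% beyond.

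The kappa locus Igk, on chromosome 6 from 67555636 to 70723923, was also divided within its V segments. Its boundary, from 69775001 to 69800000, held Igkv5-45, with Igkv12-46 10.0 kb before and Igkv12-44 14.6 kb after it. The 2425 kb domain away from the J segments held 114 V segments. The 975 kb domain on the J side held 47 V segments and the 5 Igkj segments, with no protein-coding gene. Igkc, the constant gene, lay there too, 48.2 kb from the closing boundary, and the Igkj segments lay 51.1 to 52.4 kb from it. Igkv12-98, 1204 kb from any boundary, was the most distant of all 635 entries. V segments were about as dense on either side, at 5.16 and 5.28 per 100 kb, and pseudogenes made up 44.7% of them away from the J segments and 19.1% on the J side.

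Kappa families were also mostly on 1 side. The 33 Igkv4 segments, the 19 of Igkv13 and the 10 of Igkv2 lay away from the J segments. The 13 of Igkv3, the 13 of Igkv8 and the 9 of Igkv6 lay on the J side. Of the 15 families with over 1 segment in the domains, 12 lay in 1 domain. Igkv12 had 7 segments on the far side and 5 on the J side and was interleaved with Igkv5 across the boundary, and Igkv1 had 12 and 1, the latter being Igkv1-35.

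The lambda locus Igl, on chromosome 16 from 19063225 to 19260844, lay whole in a 725 kb domain. Its 3 V segments, 5 J segments and 4 constant genes shared this domain with Lamp3 and 8 olfactory receptor genes, from Olfr164 to Olfr171. They formed a pair of groups: Iglj1, Iglj3p, Iglj3 and Iglv1 lay 88.2, 91.4, 92.0 and 110 kb from a boundary, and Iglj4, Iglj2, Iglv3 and Iglv2 lay 221, 225, 266 and 285 kb from it. None was near. With 8 entries, 0 near allows a share of up to 37.5%.

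In Tra/Trd, on chromosome 14 from 52427967 to 54218842, the boundary parted nearly all V segments from the J segments. The interval from 54025001 to 54050000 held no segment and stood in a gap of 73.8 kb, the second longest of 195 gaps between neighbouring members. Trdv3 lay 23.7 kb before it and Trdv4 lay 25 kb after it. The 1650 kb domain on the V side held 134 V segments from Trav1 to Trdv3, and 5 olfactory receptor genes (Olfr1507 to Olfr1511) around Trav1. The 600 kb domain on the other side held all 60 Traj segments, 105 to 169 kb from the boundary, and only 2 V segments, Trdv4 and Trdv5. The delta segments Trdd1, Trdd2, Trdj1 and Trdj2 and the constant genes Trdc and Trac lay in this same domain. It also held 16 protein-coding genes, among them Dad1, which lies just past Trac and acts in protein glycosylation, and the proteasome genes Psmb5 and Psmb11. Of the 196 members 0 were near a boundary, beside 8.03% of genes of at most 1 kb. Taken as independent, which they are not, this allows a share of up to 1.53%, or 1.92% by the Wilson interval. Duplicated Trav copies, marked d or n after the family number, were 74 of 130 Trav entries, and all 74 lay in the V-side domain.

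The beta locus Trb, on chromosome 6 from 40891296 to 41558371, was bracketed by boundaries. The 500 kb domain between them held 45 of its 49 members, namely 31 V segments from Trbv4 to Trbv30 and all 14 J segments. It also held 8 protein-coding genes, the trypsinogen and related protease genes from Try4 to Prss2. The first boundary, from 41025001 to 41050000, held Trbv2 and Trbv3 with the gene 2210010C04Rik, and Trbv1 lay outside, 133 kb before it, in a 525 kb domain with Moxd2 and other genes. The second, from 41550001 to 41575000, held Trbv31, the V segment on the far side of the constant genes. Just before it, Trbc2 ended 1.82 kb away. The Trbj2 segments lay 6.14 to 7.20 kb and Trbd2 7.83 kb from it. Trbc1 lay 10.3 kb, the Trbj1 segments 14.3 to 16.1 kb and Trbd1 16.8 kb away. Thus 11 of 49 members were near a boundary (22.4%, Wilson interval 13.0 to 35.9), and the median distance of 56.8 kb was the shortest of the 6 loci. The lower end of the interval equals, after rounding, the 13.0% of all annotated genes. The interval holds the 18.3% of protein-coding genes and lies above the 8.03% of genes of at most 1 kb. The Wilson intervals of Igh, Igk and Tra/Trd ended at 4.15, 3.31 and 1.92%, though the segments of a locus are not independent and the difference was not tested.

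In Trg, on chromosome 13 from 19178042 to 19340454, the boundary from 19300001 to 19325000 overlapped the constant gene Trgc2 and the joining segment Trgj2. This locus consists of repeated cassettes, each with V segments, a J segment and a constant gene. Trgv7, Trgv4, Trgv6, Trgv5 and Trgv3 lay on one side in a 425 kb domain with Trgc1, Trgc3, Trgj1, Trgj3 and the protein-coding gene Amph. Trgv2 and Trgv1 lay on the other, 11.6 and 15.0 kb from the boundary, with Trgc4 and Trgj4. The gap that held the boundary, from Trgv3 to Trgv2, was the longest of the 6 between members at 93.3 kb. On the first side Trgv3 lay 56.7 kb from the boundary, and Trgv5, Trgv6, Trgv4 and Trgv7 lay 107, 109, 114 and 122 kb from it. No member was near, and with 7 entries this allows a share of up to 42.9%.

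Most V segments were parted from the J segments of their locus by a boundary in Igh, Igk and Tra/Trd, and few in Trb. In Igh 149 of 183 V segments (81.4%) had 1 boundary between them and the Ighj segments, in Igk 114 of 162 (70.4%) and in Tra/Trd 134 of 136 (98.5%, measured to the Traj segments). In Trb the only such segment was Trbv1, while 31 of 35 had none between and 3 lay in a boundary. No V segment of these loci had more than 1. In Igh, Igk and Tra/Trd, which each have a single boundary, the split follows distance by construction. In Igh the V segments without a boundary lay 143 to 467 kb from the Ighj segments and those with 1 lay 502 to 2580 kb. In Igk these ranges were 18.4 to 907 kb and 958 to 3166 kb. Trdv5 was 5.80 kb and Trdv4 79.5 kb from the Traj segments, and the nearest V segment beyond the boundary, Trdv3, was 154 kb away. In Trb the 31 V segments with no boundary between lay 252 to 474 kb from the Trbj segments, Trbv2, in the first boundary with Trbv3, 486 kb, and Trbv1, beyond it, 642 kb. The V segment closest to the Trbj segments, Trbv31 at 13.8 kb, lay in the second boundary.

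**Figure D3:**
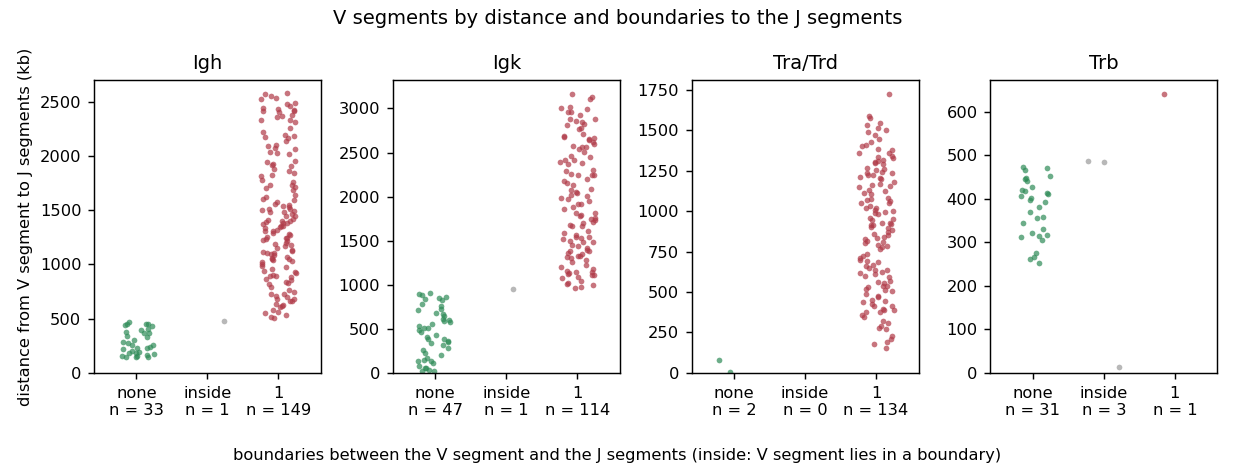
Distance in kb from each V segment to the J segments of its locus, split by whether 0 or 1 boundary lies between them or the V segment lies in a boundary, for Igh, Igk, Tra/Trd and Trb. Most points have 1 boundary in Igh, Igk and Tra/Trd (149, 114 and 134), and 1 does in Trb.

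Most constant genes lay with the J segments. Of the 21 constant genes listed, 2 were near a boundary, Trbc2 and Trgc2, a count not far from the 13.0% of all annotated genes. All 8 of Igh, Igkc, the 4 of Igl, Trac and Trdc, and Trbc1 and Trbc2 lay in the same domain as the J segments of their locus. In Igh the boundary nearest to the constant genes lay beyond Igha, on the side away from the J segments, and Ighe, Ighg2c, Ighg2b, Ighg1 and Ighg3 followed at 44.3, 62.4, 79.3, 102 and 132 kb.

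The genes for the recombination machinery lie elsewhere in the genome. Of 10 listed genes 5 were near a boundary, beside 18.3% of all protein-coding genes. Lig4, Xrcc4 and Xrcc6, which encode end joining factors, and Dntt, which encodes terminal transferase, overlapped a boundary. Rag1 lay 0.469 kb from one and its neighbour Rag2 17.5 kb from it, in a domain of 2975 kb. Dclre1c (Artemis) and Prkdc, the DNA-dependent protein kinase gene, lay 25.8 and 37.4 kb away, and Xrcc5 and Nhej1 lay 157 and 175 kb away. None of the 4 surrogate light chain genes, which stand in for a light chain in early B cells, was near: Vpreb2 lay 68.7 kb, Vpreb1 181 kb, Igll1 186 kb and Vpreb3 393 kb away. Of 6 genes of the receptor signalling complexes, Cd3g overlapped a boundary and Cd3d lay 6.77 kb from the same one, with Cd3e at 23.7 kb, whereas Cd79b, Cd79a and Cd247 lay 386, 473 and 504 kb away. These genes are longer than segments on the whole and the lists are short, so the counts are descriptions.

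Other tandem arrays of receptor genes gave values on either side of those of the segments. Of 1109 olfactory receptor genes 48 were near a boundary (4.33%), of 229 vomeronasal type 1 receptor genes 5 (2.18%) and of 123 vomeronasal type 2 receptor genes 0. Median distances were 254, 481 and 337 kb, against 333 kb for the segments. When genes under 500 kb apart were joined into clusters of at least 5, there were 0.966, 0.285 and 0.350 boundaries per Mb of cluster, against 0.699 for the segments. Differences between these arrays were not tested.

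**Figure D4:**
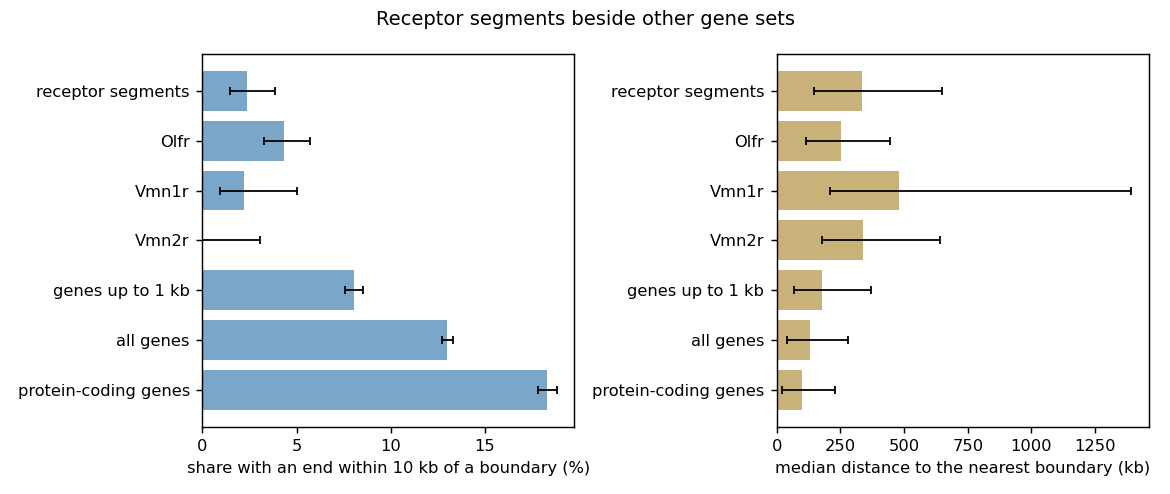
Share of genes with an end within 10 kb of a boundary (left, %, with 95% Wilson intervals) and median distance to the nearest boundary (right, kb, with quartiles) for the receptor segments, 3 other receptor arrays and 3 wider gene sets. The segments, at 2.36%, lie between Vmn1r and Olfr genes (2.18 and 4.33%) and below all genes at 13.0%.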

How the data were processed

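The authors deposited 1 boundary list for DMSO-treated ESCs. The labels of all 6 libraries name it beside pooled contact maps, and it was taken as made from that pool. Per the submitters' processing notes, BWA 0.7.17 and Juicer 1.22.01 were used on mm10. Which program called the boundaries is not given in the sources used here. The deposited columns are positions, with no count, score or signal. Starts were shifted to count from 1. Genes came from RefSeq GRCm38.p6, the same build as mm10, and 345 genes of other scaffolds, listed after each chromosome's sorted genes, were left out.

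Distance is the gap from a gene to the nearest interval, and 0 where they overlap. Genes were assigned to domains by their midpoint. Computed were counts, medians, 95% Wilson intervals for shares and an interval for the median distance, with no test. A count of 0 was taken to allow a share of 3 divided by the entries. That limit treats entries as independent, which segments of a locus are not, and differs from the Wilson end. Every segment may be named, and the first and last of each locus, those next to each boundary, up to 6 nearest to a boundary per locus, the nearest protein-coding genes and the listed genes always are. The members, the lists and the 3 arrays were chosen with earlier results of these data known, and the GC box and CTCF letters and the 4 printed starts after seeing the data. Distances and counts were tested on simulated data. A planned motif search in segment windows was not run, since 0 segments had one. Whether reads map poorly in these repeated arrays was not tested. The work was done in Python 3.11.15 (pandas 2.3.3, numpy 2.4.6, scipy 1.17.1) and drawn with matplotlib 3.10.9.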

Additional observations from a re-analysis of the deposited data

How the results depend on the processing

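Of 37 alternatives, 30 left the value within its counting interval, or a count of boundaries within 1.5 times. For the median distance that interval was 285 to 378 kb. Several of the 30 could not have moved and say nothing of stability. No entry lay outside the 6 loci, Igl lay whole in 1 domain, Trg had no pseudogenes, and no member of Tra/Trd or Trg lay in a boundary. The share of entries near a boundary (2.36%) was 0.787% with no window and 7.72% with a window of 50 kb. It was 0.683% without the Trb locus. The median distance of 333 kb was 273 kb without Igk and 378 kb without Trb. The latter value equals the upper end of its interval, after rounding, and was counted among the 30. The 6 boundaries in the loci became 5 when only intervals centred inside a span were counted. They became 10 when each span was extended by 100 kb on either side. No rate was computed for the extended spans, so the low 0.699 per Mb holds only for spans from first to last segment. Without pseudogenes the largest share of Igk in 1 domain went from 68.3% to 58.9%, and with the boundary interval split between its neighbours that of Trb went from 91.8% to 98.0%. Leaving out the constant gene Ighd, chosen after seeing the data, gave 2.37% and 334 kb. The motif alternative with 1 mismatch was not run, as no segment window was held. No paired analysis was possible because the replicates share 1 list, and for the same reason none could be left out in turn. Resolution of 25 kb and unknown contact depth limit what can be said of single segments.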
